A study of Mus musculus with 10 samples.

Results

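A set of 8 genes of stromal matrix and protease control was examined in the colons of Vista knockout (KO) and wild-type (WT) mice with chemically induced colitis. They are 2 collagen chains (Col1a2 and Col15a1), 3 matrix or cell-surface proteins (Svep1, Matn2 and Sdc2), 1 secreted protease (Adamts12) and 2 protease inhibitors (Tfpi2 and Reck). The genes were chosen by name, with their KO over WT fold changes in these same libraries already known, out of the 55416 gene identifiers counted in every library. A gene was taken only where its counts could be trusted to follow its name, inside 3 stretches of the mouse mm10 build on chromosome 4 (up to 59.9 Mb), chromosome 6 (up to 30.3 Mb) and chromosome 15 (10.4 to 38.1 Mb). Those stretches were set from the count levels of genes that practically every cell uses, without regard to genotype, and hold 1415 of the counted identifiers, 525 of them protein-coding.

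Whole colon was sequenced as bulk RNA from 5 KO and 5 WT libraries. All mice, WT included, had drunk 2% dextran sulfate sodium (DSS), a polymer that injures the colonic epithelium, for 7 days, so no comparison with an uninjured colon is possible. Vista, the product of Vsir, is an inhibitory checkpoint protein of immune cells. A first deposited table held KO 1 to 3 and WT 1 to 3, and a second held KO 4 and 5 with WT 4 and 5. The labels gave the first 3 KO libraries the genotype "VISTA knockdown" and the other 2 "Vista-/-", and the design text describes Vista-/- mice throughout, so all 5 were taken as 1 group. Strain, age, sex and the way the allele was made are not given in the sources used here. The design text calls 3 replicates per group biological, but the labels do not say which animal each later library came from. The p-values therefore reflect only how these libraries vary, which may be partly technical.

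The extracellular matrix of the gut wall is laid down mainly by fibroblasts and smooth muscle cells, as fibrillar collagens, basement membrane collagens and the glycoproteins and proteoglycans that bind them. Secreted and membrane-bound proteases cut this matrix during inflammation and repair. Their activity is held back by inhibitors, some of which are deposited in the matrix or anchored on the cell surface. In bulk tissue, fewer stromal cells and less RNA per stromal cell cannot be told apart.

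Upstream sequence is shown for the protease Adamts12 and the inhibitors Tfpi2 and Reck, which carry the contrast described below. By fitted value Adamts12 and Tfpi2 were lower in KO colons in both tables, while Reck was lower in the first table only. Within single tables only Adamts12 in the first passed the test described below. The change of Reck between tables did not pass. RefSeq promoter windows matched 6 of the 8 genes, all but Matn2 and Sdc2. Each sequence is the stretch just before a RefSeq transcription start on build GRCm38.p6 (the assembly of mm10), printed 5′ to 3′ along the gene's own strand. Capitals mark matches, on either strand, to the GC box letters GGGCGG, to the CCAAT box, to the TATA box letters TATAAA or to the AP-1-like pattern TGANTCA. No match of one pattern overlapped a match of another in these windows. The Adamts12 stretch is chr15:11064523-11064772 on the plus strand, the Tfpi2 stretch is chr6:3968377-3968625 on the minus strand, and the Reck stretch is chr4:43875280-43875529 on the plus strand.
Adamts12: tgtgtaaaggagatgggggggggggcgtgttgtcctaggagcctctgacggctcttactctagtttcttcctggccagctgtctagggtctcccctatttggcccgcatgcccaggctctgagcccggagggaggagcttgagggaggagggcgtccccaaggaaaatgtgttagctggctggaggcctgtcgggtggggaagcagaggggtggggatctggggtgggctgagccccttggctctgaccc
Tfpi2: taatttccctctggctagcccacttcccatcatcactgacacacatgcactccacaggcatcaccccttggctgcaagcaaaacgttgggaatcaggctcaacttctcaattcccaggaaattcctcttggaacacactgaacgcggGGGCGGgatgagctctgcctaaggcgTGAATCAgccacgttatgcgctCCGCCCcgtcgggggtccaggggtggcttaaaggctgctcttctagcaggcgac
Reck: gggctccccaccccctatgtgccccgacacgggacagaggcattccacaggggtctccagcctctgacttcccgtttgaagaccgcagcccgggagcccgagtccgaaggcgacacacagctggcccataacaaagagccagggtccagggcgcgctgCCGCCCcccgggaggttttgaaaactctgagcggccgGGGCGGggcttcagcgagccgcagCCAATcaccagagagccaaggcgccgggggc

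The Adamts12 window had a GC content of 63.2% with 6 CpG dinucleotides and matched none of the 4 patterns. The Tfpi2 window had 56.6% GC, 11 CpG, 2 GC boxes and 1 TGANTCA match, whose middle base is not the C or G of the classical AP-1 site. The Reck window had 68.4% GC, 19 CpG, 2 GC boxes and 1 CCAAT. Over all 32851 RefSeq promoter windows of 250 upstream bases the median was 52.4% GC and 6 CpG, and a match was held by 32.7% for GGGCGG, 33.8% for CCAAT, 12.4% for TATAAA and 6.75% for TGANTCA. These matches describe letters only and are not binding sites. RefSeq lists 2 further starts for Tfpi2, at 3988858 and 3988936, at the upstream end of the annotated gene, whereas the start shown, 3968375, lies inside the gene span and 1 base from a protein-coding transcript start in GENCODE M21. The windows before the 2 upstream starts had 43.6% and 44.4% GC, 0 GC boxes and 1 and 2 CCAAT matches.

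Library totals were alike, from 3691322 to 4071238 counts, and the 3 stretches held 9.90% to 10.6% of each. On the first principal component of all expressed genes (37.2% of the variance) WT 4 and WT 5 stood apart from the other 8 libraries, at scores of 41 and 44.6 against -24.4 to 6.33. Those 2 libraries are the whole WT group of the second table, so results are given with and without them. The targeted gene could not check the labels, because the row named Vsir lies on chromosome 10, outside the stretches where counts follow names. That row held 27, 49, 33, 97 and 40 counts in the KO libraries and 42, 78, 82, 5 and 0 in the WT libraries, and its KO over WT log2 fold change was 0.55 ± 0.77 (SE, edgeR, adjusted p = 0.702). Its first-table value was -0.88 and its second-table value 4.61 (edgeR, adjusted p = 0.0868 and 0.0902), and this difference between tables passed (edgeR, adjusted p = 0.0101). Inside the stretches Cdh17, an intestinal cadherin, was at 3087 to 3823 CPM, counts scaled to a common library total, in KO libraries and 3148 to 3601 CPM in WT libraries. Spam1, a sperm gene, had 0 counts in all 10 libraries, which allows up to 3 counts or 0.0776 CPM over the summed libraries, counting error only.

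Adamts12 and Tfpi2 were the 2 of the 8 genes whose difference between KO and WT colons passed the test, and both were lower in KO. The difference was 2.2-fold for Adamts12 and 2.57-fold for Tfpi2. Reck, the other inhibitor, and the 5 structural and surface genes did not pass over all 10 libraries. The test was edgeR's quasi-likelihood test over all 9736 expressed rows, with the table as a covariate and a threshold of 0.05 on the Benjamini-Hochberg adjusted p. By that rule 5.63% of all tested rows were called, 2.93% lower in KO and 2.7% higher (48% of the calls higher, or 56.7% with libraries scaled on the 3 stretches alone), and inside the 3 stretches 7.03% of 427 were called lower. All 8 genes passed the filter on low counts. Since they were listed with this contrast known, their share of 2 in 8 is a description and nothing is read from it.

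**Figure D1:**
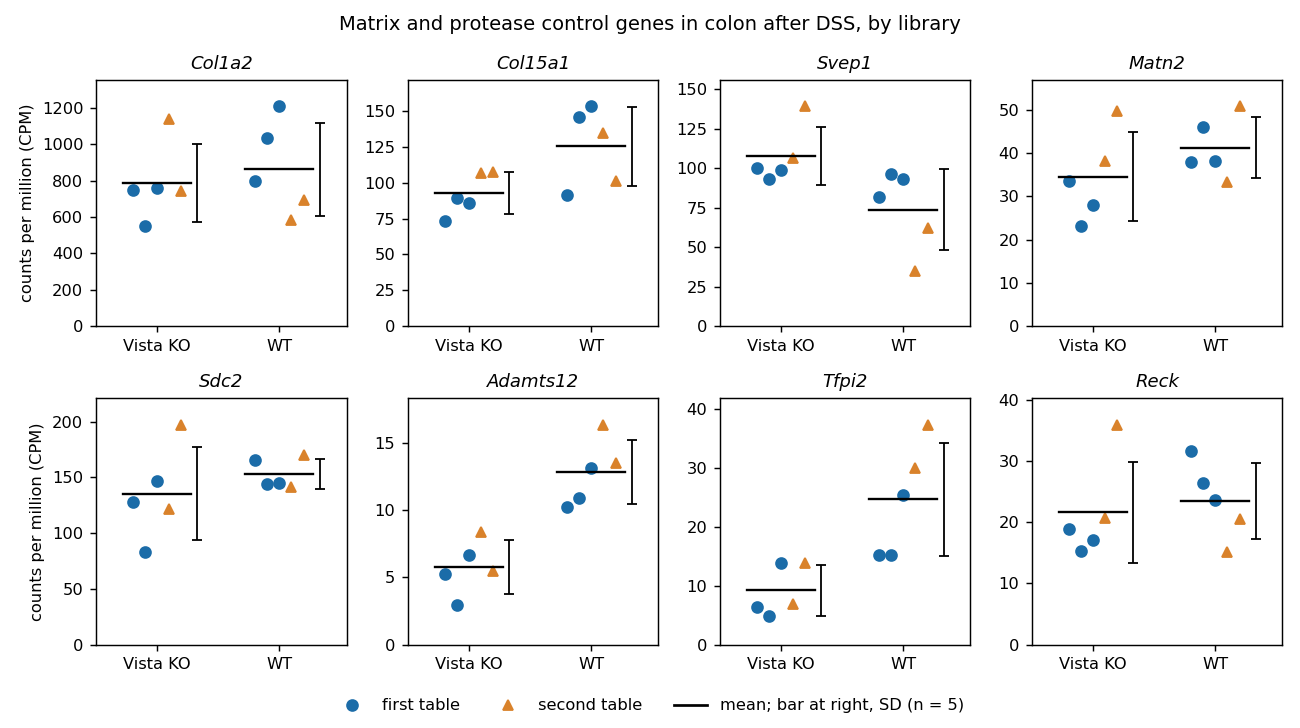
CPM (vertical axis, linear, from 0) of each of the 8 genes in every library, with KO libraries on the left and WT on the right of each panel; circles are the first table, triangles the second, horizontal lines the mean and side bars the SD of 5 libraries. The KO and WT points of Adamts12 and Tfpi2 do not overlap, whereas those of the other 6 genes do.

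Adamts12 encodes a secreted zinc metalloprotease with thrombospondin repeats that can cut cartilage oligomeric matrix protein (mm10, chromosome 15, 11064790 to 11349231, plus strand, ENSMUSG00000047497). It measured 5.22, 2.95, 6.68, 8.39 and 5.51 CPM in KO 1 to 5, against 10.3, 10.9, 13.1, 16.4 and 13.5 CPM in WT 1 to 5. Every KO library lay below every WT library. These values rest on 21, 12, 25, 34 and 21 counts in KO libraries and 38, 43, 51, 61 and 50 counts in WT libraries, so counting error is a sizeable part of each. The means were 5.75 ± 2.00 CPM in KO and 12.8 ± 2.42 CPM in WT (SD, n = 5 each), and the fitted log2 fold change was -1.14 ± 0.21 (SE, edgeR quasi-likelihood with Benjamini-Hochberg adjustment, adjusted p = 0.0127).

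The 2 tables gave Adamts12 nearly the same size of difference. In the first table alone the log2 fold change was -1.18 ± 0.28 (edgeR, adjusted p = 0.0398), and in the second it was -1.10 ± 0.33 (edgeR, adjusted p = 0.206). The term for a change of the genotype difference between tables was 0.08 ± 0.43 (second minus first, edgeR, adjusted p = 0.952). Leaving out any 1 of the 10 libraries kept the pooled call, with adjusted p between 0.0117 and 0.0432 in edgeR. Without both WT 4 and WT 5, and then with no table term, the log2 fold change was -0.98 and edgeR's adjusted p = 0.0971, the one setting of 16 in which the call ended. Within the first table the call was held by edgeR only without KO 3, and leaving out KO 1, KO 2, WT 1, WT 2 or WT 3 gave adjusted p of 0.0935, 0.0999, 0.0668, 0.0917 and 0.109 in edgeR.

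Tfpi2 encodes a matrix-bound Kunitz-type inhibitor of serine proteases such as plasmin and trypsin (chromosome 6, 3962595 to 3988919, minus strand, ENSMUSG00000029664). It measured 6.46, 4.91, 13.9, 6.91 and 13.9 CPM in KO 1 to 5, against 15.2, 15.2, 25.5, 30.1 and 37.4 CPM in WT 1 to 5. Here too every KO library lay below every WT library, although KO 3 and KO 5 came close to WT 1 and WT 2. The counts behind these values were 26, 20, 52, 28 and 53 in KO libraries and 56, 60, 99, 112 and 138 in WT libraries. The means were 9.22 ± 4.34 CPM in KO and 24.7 ± 9.63 CPM in WT (SD, n = 5 each), a log2 fold change of -1.36 ± 0.29 (SE, edgeR quasi-likelihood with Benjamini-Hochberg adjustment, adjusted p = 0.0242).

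By table, the log2 fold change of Tfpi2 was -1.12 ± 0.35 in the first (edgeR, adjusted p = 0.0763) and -1.69 ± 0.38 in the second (edgeR, adjusted p = 0.114). The difference between tables was -0.57 ± 0.58 (edgeR, adjusted p = 0.723). The pooled call lay close to the threshold. Leaving out KO 1, KO 2, WT 3, WT 4 or WT 5 moved edgeR's adjusted p to between 0.0573 and 0.0601, and leaving out any of the other 5 libraries kept it below 0.05, while the log2 fold change stayed between -1.66 and -1.18. Without WT 4 and WT 5 together, and with no table term, it was -1.01 (edgeR, adjusted p = 0.140).

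**Figure D2:**
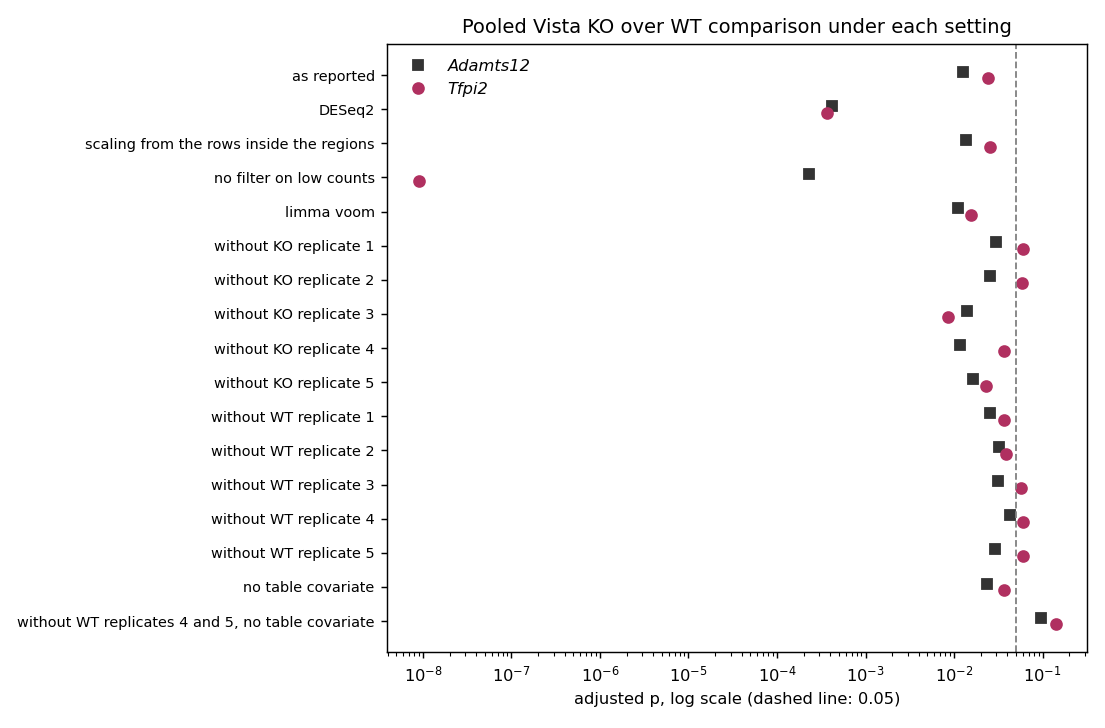
Adjusted p (horizontal log axis, dashed line at 0.05) of the pooled KO over WT comparison for Adamts12 (squares) and Tfpi2 (circles) as reported and under each of 16 other settings, which run down the page. Adamts12 lies left of the line in 15 of the 16 settings and Tfpi2 in 10, and neither does without WT 4 and WT 5.

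A complete separation of the 5 KO from the 5 WT libraries with KO lower, as Adamts12 and Tfpi2 had, was found in 4.51% of all tested rows and in 9.84% of those inside the 3 stretches. At an unadjusted p under 0.05 the pooled edgeR test also took in Col15a1 and Svep1, which makes 4 of the 8 genes, against 23.3% of all rows and 31.4% inside the stretches. The median log2 fold change of the 8 genes was -0.22, with 7 of 8 below 0, and that of all tested rows was 0.02. Inside the stretches the median was -0.03. Of all tested rows 47.4% were below 0, and of those inside the stretches 53.6%.

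Reck encodes a membrane-anchored inhibitor of matrix metalloproteinases (chromosome 4, 43875530 to 43944806, plus strand, ENSMUSG00000028476). It measured 18.9, 15.2, 17.1, 20.7 and 35.9 CPM in KO 1 to 5, against 31.7, 26.4, 23.7, 15.0 and 20.6 CPM in WT 1 to 5. In the first table every KO library was below every WT library, and in the second every KO library was above both WT libraries. The second-table gap was narrow, with KO 4 at 20.7 CPM and WT 5 at 20.6 CPM. The means over all libraries, 21.6 ± 8.29 CPM in KO and 23.5 ± 6.23 CPM in WT (SD, n = 5 each), differed by less than either SD. The pooled log2 fold change was -0.11 ± 0.26 (edgeR, adjusted p = 0.825), and it was 0.02 without WT 1.

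The log2 fold change of Reck was -0.64 ± 0.18 in the first table (edgeR, adjusted p = 0.0579) and 0.67 ± 0.35 in the second (edgeR, adjusted p = 0.473), where it was 0.21 without KO 5. The difference between tables was 1.31 ± 0.36, which missed the threshold over all rows (edgeR, unadjusted p = 0.00414, adjusted p = 0.107). Without KO 5, the highest library for Reck, this difference was 0.83. It passed without KO 4, at an adjusted p of 0.0156 in edgeR, and with no filter on low counts. Over the 14 alternatives the adjusted p of this term ran from 0.0156 to 0.324 in the tools used (edgeR, DESeq2 and limma voom).

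Neither collagen passed the pooled test. Col1a2 encodes the alpha-2 chain of type I collagen, the main fibrillar collagen of scar and connective tissue (chromosome 6, 4504814 to 4541544, plus strand, ENSMUSG00000029661). It measured 748, 551, 759, 1141 and 743 CPM in KO 1 to 5, against 798.5, 1034, 1211, 582 and 695 CPM in WT 1 to 5. Within each table the genotypes did not overlap, but on opposite sides, with KO below WT in the first table and above WT in the second. The means were 788 ± 215 CPM in KO and 864 ± 256 CPM in WT (SD, n = 5 each), with a pooled log2 fold change of -0.09 ± 0.22 (edgeR, adjusted p = 0.833) that was 0.03 without KO 2 and also without WT 3.

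By table, Col1a2 had a log2 fold change of -0.53 ± 0.15 in the first (edgeR, adjusted p = 0.0652) and 0.56 ± 0.24 in the second (edgeR, adjusted p = 0.373). The difference between tables was 1.09 ± 0.30 and did not pass over all rows (edgeR, unadjusted p = 0.00358, adjusted p = 0.0990). Its adjusted p ran from 6.83e-05 to 0.300 over the 14 alternatives in edgeR, DESeq2 and limma voom, and 3 of them passed.

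Col15a1 encodes a collagen of the basement membrane zone, which anchors fibrils to the membranes around vessels and muscle cells (chromosome 4, 47208161 to 47313167, plus strand, ENSMUSG00000028339). It measured 73.5, 89.7, 85.8, 107 and 108 CPM in KO 1 to 5, against 91.7, 146, 154, 135 and 102 CPM in WT 1 to 5. The first table separated the genotypes, though narrowly between KO 2 and WT 1, and in the second WT 5 lay below both KO libraries. The means were 92.8 ± 14.7 CPM in KO and 125 ± 27.3 CPM in WT (SD, n = 5 each), with a pooled log2 fold change of -0.41 ± 0.15 that missed the threshold (edgeR, adjusted p = 0.138). With no filter on low counts edgeR called it at an adjusted p of 0.0460, and over the other alternatives it was not called, with adjusted p up to 0.260. Its log2 fold change was -0.61 ± 0.17 in the first table (edgeR, adjusted p = 0.0586) and -0.13 ± 0.19 in the second (edgeR, adjusted p = 0.834), where it was 0.08 without WT 4.

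Svep1 was the one gene of the 8 whose pooled value was above 0. It encodes a very large secreted adhesion protein of the matrix that is needed for lymphatic vessel development in mice (chromosome 4, 58042442 to 58206859, minus strand, ENSMUSG00000028369). It measured 100.4, 93.1, 98.9, 106 and 139 CPM in KO 1 to 5, against 82.0, 96.2, 93.1, 34.7 and 62.0 CPM in WT 1 to 5. In 4 of the 5 KO libraries the value was above every WT library, the exception being KO 2, and WT 4 was the lowest of all. The means were 108 ± 18.3 CPM in KO and 73.6 ± 25.6 CPM in WT (SD, n = 5 each), with a pooled log2 fold change of 0.62 ± 0.23 (edgeR, adjusted p = 0.132). With no filter on low counts edgeR called it at an adjusted p of 8.02e-05, and over the other alternatives it was not called, with adjusted p up to 0.260.

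In the second table the log2 fold change of Svep1 was 1.35 ± 0.31 (edgeR, adjusted p = 0.122), and in the first it was 0.15 ± 0.10 (edgeR, adjusted p = 0.379). The difference between tables was 1.20 ± 0.29 and missed the threshold over all rows (edgeR, adjusted p = 0.0613). Over the 14 alternatives its adjusted p ran from 0.000314 to 0.164, and it passed in 4 of them: with DESeq2, with no filter on low counts, without KO 4 and without WT 5. Without WT 4 and WT 5, and with no table term, the pooled log2 fold change of Svep1 was 0.27. The lincRNA gene Gm26889 shares 2244 exon bases with Svep1 on the opposite strand and was not analysed here, and no strand setting is given in the sources used here, so reads of the pair cannot be told apart.

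Matn2 and Sdc2 did not pass either. Matn2 encodes a matrilin, an adaptor that links collagen fibrils to other matrix proteins (chromosome 15, 34306677 to 34436273, plus strand, ENSMUSG00000022324). It measured 33.5, 23.1, 28.1, 38.3 and 49.8 CPM in KO 1 to 5, against 37.9, 46.2, 38.3, 33.3 and 50.9 CPM in WT 1 to 5. KO lay below WT throughout the first table and overlapped WT in the second. The pooled log2 fold change was -0.26 ± 0.17 (edgeR, adjusted p = 0.377), with -0.49 ± 0.16 in the first table (edgeR, adjusted p = 0.0850) and 0.07 ± 0.27 in the second (edgeR, adjusted p = 0.949).

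Sdc2 encodes syndecan-2, a transmembrane heparan sulfate proteoglycan that binds growth factors and matrix at the cell surface (chromosome 15, 32920723 to 33034935, plus strand, ENSMUSG00000022261). It measured 128, 82.8, 147, 122 and 197 CPM in KO 1 to 5, against 165, 144, 145, 141 and 170.4 CPM in WT 1 to 5. The KO libraries held both the lowest value, in KO 2, and the highest, in KO 5, and the SD was 41.7 CPM in KO and 13.7 CPM in WT. The pooled log2 fold change was -0.17 ± 0.17 (edgeR, adjusted p = 0.565). Without WT 4 and WT 5, and with no table term, the log2 fold change was -0.15 for Sdc2, -0.23 for Matn2, -0.33 for Reck, -0.47 for Col15a1 and -0.35 for Col1a2, and none of these passed in edgeR (adjusted p from 0.155 to 0.707).

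**Figure D3:**
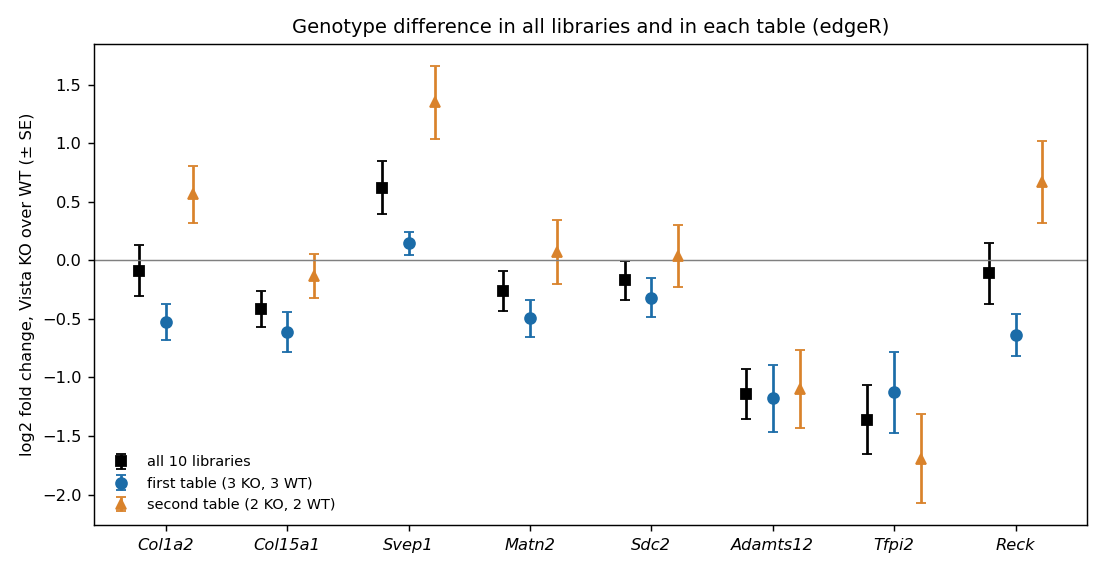
Fitted log2 fold change of KO over WT (vertical axis, bars are ± 1 SE) of each gene over all 10 libraries (squares), within the first table (circles) and within the second (triangles). Adamts12 and Tfpi2 lie near or below -1 in all 3 fits, while Col1a2 and Reck are below 0 in the first table and above 0 in the second.

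Set side by side, the 2 tables gave different pictures of the set. In the first, 7 of the 8 genes were below 0, with a median log2 fold change of -0.57, and every KO library was below every WT library for 6 of them, Svep1 and Sdc2 being the others. That separation occurred in 17.1% of all rows and in 28.3% of those inside the stretches, and the median log2 fold change of all rows was -0.003. Among rows inside the stretches the median was -0.065 and 58.1% were below 0, against 50.4% of all rows. Adamts12 was the 1 gene to pass edgeR's adjusted threshold in the first table, where 6.06% of rows were called. DESeq2, given the same 9829 rows, called 4 of the 8 and 694 in all. Of the first table's calls, 51.2% were higher in KO, or 64.1% when libraries were scaled on the 3 stretches alone.

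In the second, 3 of the 8 genes were below 0 and the median was 0.05, against 0.02 for all rows (edgeR). Of all rows 48.3% were below 0, and of those inside the stretches 46.9%. Adamts12 and Tfpi2 were separated with KO lower, as were 21.9% of all rows. Col1a2, Svep1 and, narrowly, Reck were separated with KO higher, as were 22.7%. None of the 8 passed edgeR's adjusted threshold in this table of 2 against 2, where 0.856% of rows were called. Given the same 9932 rows, DESeq2 called 2 of the 8, Svep1 and Tfpi2, and 439 in all. Limma voom called 0 of the 8 and 28 in all. At an unadjusted p under 0.05 edgeR took in 3 of the 8, but the share of all rows at that cut was not computed for this table. For the difference between tables edgeR called none of the 8, against 2.05% of all rows. Col1a2, Svep1 and Reck had an unadjusted edgeR p under 0.05 there, a cut whose share of all rows was not computed for this term. On the 9736 rows tested for this difference, DESeq2 called 2 of the 8 and 344 in all. Limma voom called 0 of the 8 and 154 in all.

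**Figure D4:**
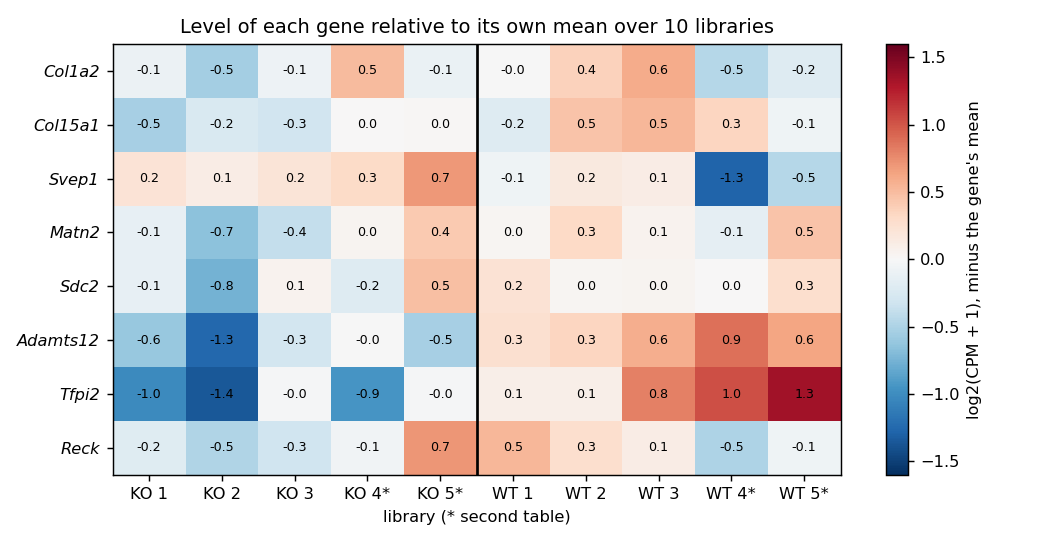
Level of each gene (down the page) in each library (KO 1 to 5, then WT 1 to 5, an asterisk marking the second table), as log2(CPM + 1) minus that gene's mean over the 10 libraries; red is above and blue below the gene's own mean. KO 2 is the lowest library for 5 of the 8 genes, and KO 5 the highest for Svep1, Sdc2 and Reck.

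Some libraries were the lowest or the highest for several of the genes. How often each library held that place over all rows was not counted. KO 2 was the lowest library for Col1a2, Matn2, Sdc2, Adamts12 and Tfpi2. KO 5 was the highest for Svep1, Sdc2 and Reck, and WT 4 was the lowest for Svep1 and Reck. Marker genes of other cells inside the 3 stretches also varied by library. The 6 smooth muscle markers there, which include Tpm2, Flnc and Cav1, summed to 1025 to 2173 CPM in KO libraries (median 1333) and 1123 to 1929 CPM in WT libraries (median 1745), with KO 5 the highest at 2173 CPM. Of the 6, Lmod2, which is better known from striated muscle, was at 0 counts in every library.

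Immune and stromal markers varied too. The 8 B cell and other immune markers summed to 636 to 1014 CPM in KO libraries (median 699) and 412 to 866 CPM in WT libraries (median 600.4), and the lowest were WT 4 and WT 5, at 434 and 412 CPM. Within this list the B cell genes Pax5, Cd72 and Bach2 and the interferon regulatory factor Irf5 were lowest in WT 4 and WT 5, with Pax5 at 10.7 and 5.15 CPM there, against 61.2 to 148 CPM in WT 1 to 3 and 55.4 to 130.1 CPM in KO libraries. Their genotype difference changed between tables (edgeR, adjusted p = 0.00377 for Pax5, 0.00567 for Cd72, 0.00317 for Bach2 and 0.0479 for Irf5), with the second table higher. Sit1, Lyn, Tox and Ripk2 of the same list did not pass for this change (edgeR, adjusted p = 0.110, 0.261, 0.3275 and 0.883). Lyn, at 186 and 161.5 CPM, and Sit1, at 0.806 and 0.813 CPM, were nevertheless also lowest in WT 4 and WT 5. Col1a2, Svep1 and Reck also had the higher genotype difference in the second table, but their change between tables did not pass in edgeR's main fit. Tox was highest in WT 4 and WT 5, at 112 and 101 CPM. The 3 fibroblast markers that are not among the 8 genes (Osr2, Cped1 and Lpar1) summed to 179 to 315 CPM in KO libraries (median 244) and 219 to 674 CPM in WT libraries (median 253), the highest being WT 5. Osr2 made up 478 of the 674 CPM in WT 5 and 114 CPM in WT 4, whereas Cped1 was lowest of all libraries there, at 37.3 CPM in WT 4 and 39.5 CPM in WT 5, and Lpar1 was at 152 and 157 CPM, below WT 1 to 3. The 8 epithelial markers ran from 7726 to 10690 CPM in KO libraries and from 8485 to 11500 CPM in WT libraries. The 7 markers of enteric neurons and glia summed to 351 to 926 CPM in KO libraries (median 732) and 352 to 545.5 CPM in WT libraries (median 474). Tac1 alone made up 644, 513 and 562 of the 926, 732 and 854 CPM in KO 1 to 3. It was at 112 CPM in KO 4, 173 CPM in KO 5 and 70.2 to 165 CPM in WT libraries. Penk of the same list went the other way, with means of 78.9 CPM in KO and 162 CPM in WT. None of the 9 endothelial markers lies inside the stretches. The part of these cell populations in the differences of the 8 genes was not tested.

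Other markers that passed the pooled test lay on both sides. Penk, an opioid peptide precursor of enteric neurons, fell in KO with a log2 fold change of -1.02 ± 0.24 (edgeR, adjusted p = 0.0308), and Tac1, the substance P precursor, rose by 1.5 ± 0.25 (edgeR, adjusted p = 0.00826). Cftr, the epithelial chloride channel, fell by 0.69 ± 0.16 on the log2 scale (edgeR, adjusted p = 0.0310). Tox, a transcription factor of T cells and innate lymphoid cells, fell by 0.59 ± 0.15 (edgeR, adjusted p = 0.0427). In the first table alone, which holds neither WT 4 nor WT 5, Penk had -1.25, Tac1 1.98, Cftr -0.62 and Tox -0.37, and Tox no longer passed (edgeR, adjusted p = 0.157). The second table gave -0.70 for Penk, 0.72 for Tac1, -0.81 for Cftr and -0.94 for Tox. None of these passed there (edgeR, adjusted p from 0.1025 to 0.350).

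Compared per kilobase of annotated exon, the order of the levels differed between the genotypes at Tfpi2 and Svep1. In KO colons the levels were 63.4 ± 17.3 CPM per kb for Col1a2, 38.3 ± 11.8 for Sdc2, 14.6 ± 2.31 for Col15a1, 6.67 ± 1.14 for Svep1, 5.52 ± 1.64 for Matn2, 5.28 ± 2.48 for Tfpi2, 4.52 ± 1.73 for Reck and 0.527 ± 0.183 for Adamts12 (mean ± SD, n = 5). In WT colons they were 69.5 ± 20.6 CPM per kb for Col1a2, 43.4 ± 3.88 for Sdc2, 19.8 ± 4.31 for Col15a1, 14.1 ± 5.51 for Tfpi2, 6.60 ± 1.13 for Matn2, 4.91 ± 1.3 for Reck, 4.57 ± 1.59 for Svep1 and 1.18 ± 0.221 for Adamts12. Tfpi2 stood below Svep1 and Matn2 in KO and above both in WT, and Svep1 stood above Matn2 and Reck in KO and below both in WT. In the KO order each neighbouring pair from Svep1 down to Reck, and in the WT order Reck and Svep1, differed by less than the larger SD of the pair.

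Among the other listed matrix and signalling genes inside the stretches, 1 tested gene passed with KO higher and 0 with KO lower. That share was no higher than that of all rows. Of 158 symbols listed for collagens, matrix glycoproteins, matrix proteases, protease inhibitors, and matrix sensing and fibroblast signalling, 46 lie inside the stretches. Of these, 38 are outside the set of 8, and 27 of the 38 were expressed enough to test. The list of matrix sensing and fibroblast signalling gave 20 of the 27 and the 1 call, so the values below are mostly those of that list. In the pooled edgeR test 1 of the 27 (3.7%, against 5.63% of all rows) was called, 14 were below 0 and their median log2 fold change was -0.04. The called gene was Met, the receptor for hepatocyte growth factor, at 330, 372, 328, 374 and 287 CPM in KO 1 to 5, against 305, 251, 283, 237 and 215 CPM in WT 1 to 5. KO 5 overlapped WT 1 for Met, and the other 4 KO libraries were above all WT libraries, with a log2 fold change of 0.42 ± 0.11 (edgeR, adjusted p = 0.0416). In the first table alone it was 0.33 and did not pass (edgeR, adjusted p = 0.106). Among those not called, the ephrin receptor gene Epha7 had -1.30 ± 0.39 (edgeR, adjusted p = 0.0759), a fitted value of the size of that of Adamts12, with 4.91 to 47.2 CPM in KO libraries and 39.6 to 64.2 CPM in WT libraries.

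By role, 0 of the 3 collagens passed, and the one outside the set of 8, Col28a1, had a log2 fold change of -0.62 ± 0.23 (edgeR, adjusted p = 0.141). None of the 7 tested glycoproteins and proteoglycans passed. Of the 2 tested proteases 1 passed, Adamts12, and the other, the carboxypeptidase Cpq, had 0.15 ± 0.16 (edgeR, adjusted p = 0.621). Of the 3 inhibitors 1 passed, Tfpi2, and Spink4, a secreted peptide of goblet cells, had -0.11 ± 0.25 (edgeR, adjusted p = 0.822). The 27 genes, 20 of them from the list of matrix sensing and fibroblast signalling, had medians on opposite sides of 0 by table, as for Col1a2 and Reck. The median log2 fold change was -0.21 in the first table but 0.24 in the second. Cav2, a caveolin of the cell membrane, had -0.57 in the first table but 0.77 in the second, and this difference between tables passed (edgeR, adjusted p = 0.0113).

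For each of the 8 genes the closest profile over the 10 libraries was sought among 348 named protein-coding genes inside the stretches, by the root mean square difference of centred log2(CPM + 1) values. The closest gene must lie below the median of all candidates, so that median only gives a scale and tests nothing. It was Hilpda for Adamts12 (0.28, against a median of 0.644 over all candidates), Zfp462 for Tfpi2 (0.278 against 0.865) and Rusc2 for Reck (0.144 against 0.433). It was Abca1 for Col1a2 (0.160 against 0.404), Arhgef39 for Col15a1 (0.226 against 0.374) and Otulinl for Svep1 (0.260 against 0.550). It was Fbxl7 for Matn2 (0.204 against 0.383) and Wwp1 for Sdc2 (0.194 against 0.361). Gng11 was the second closest gene to both Adamts12 and Tfpi2.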

How the data were processed

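Whole-colon RNA from 5 KO and 5 WT libraries was analysed from the count tables the authors deposited, which hold raw read counts per Ensembl gene, not normalised. Per the submitters' processing notes, HISAT2 (2.2.1 for the first 6 libraries) aligned the reads and featureCounts 2.0.1 counted them, on mm10 for the later 4 libraries, whereas the notes of the first 6 name GRCh38, a human assembly. Annotation and strand setting are not given in the sources used here. The 55416 rows were identical between tables, and GENCODE M21 named 52083 of them. Outside 3 regions of the genome the counts did not follow the gene names, so named genes are reported only inside them, and what the rows outside measure is unknown although they enter scaling and adjustment.

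CPM used column totals. The main test was edgeR 4.0.16 (R 4.3.3): TMM scaling, filterByExpr, quasi-likelihood fits with the table as covariate, and Benjamini-Hochberg adjustment over all rows tested, at 0.05. SE is the log2 fold change over the square root of F. Separate fits were made per table, and an interaction term tested whether the genotype difference changed between them. Alternatives were DESeq2 1.42.0, limma 3.58.1 (voom), scaling from the 3 regions, no filter on low counts, no table term, and leaving out libraries. The edgeR fits were tested on simulated data. Totals of 3691322 to 4071238 counts per library set the counting error, and CPM of genes with few counts are the least precise. No 2 libraries agreed within sampling noise: the closest pair, WT 2 and WT 3, had a chi-square of 4.06 per row.

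The 8 genes, the gene lists and the tests were chosen with earlier results of these data known. Named besides the 8 are listed genes inside the regions that passed the pooled threshold and the gene closest in profile to each of the 8. Cav2, Cped1, Lpar1, Col28a1, Cpq, Spink4, Epha7, Pax5, Cd72, Bach2, Irf5, Sit1, Lyn, Ripk2, Osr2, Lmod2, Spam1, Cdh17, Tpm2, Flnc, Cav1 and Gng11 were named after their values were seen.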

Additional observations from a re-analysis of the deposited data

Results flagged for a closer look

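In 16 groups of 5 libraries (the 8 genes in each genotype), 2 held a library farther from the others than Dixon's 95% limit, and chance gives about 1 in 20. KO 5 stood above the other KO libraries for Svep1, at 139 CPM, and for Reck, at 35.9 CPM. WT 5 also stood above the other WT libraries for Osr2, a mesenchymal transcription factor, at 478 CPM, but that gene was singled out after its values were seen, so its distance is a description.

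For Col1a2 and Reck the KO libraries lay below all WT libraries in the first table and above both in the second. For Reck the second-table gap was narrow, at 20.7 CPM in KO 4 and 20.6 CPM in WT 5. The difference of the log2 fold changes, second table minus first, was 1.09 for Col1a2 and 1.31 for Reck, with edgeR adjusted p of 0.0990 and 0.107. WT 4 and WT 5, the WT libraries that stood apart in the principal components, are the whole WT group of the second table, so table and these libraries cannot be told apart.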

How the results depend on the processing

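The pooled count of 548 called rows (edgeR) was 848 with DESeq2, 1260 with no filter on low counts and 78 without WT 4 and WT 5 and with no table term, and 226 to 990 when 1 library was left out. The 8 genes had 2 calls, 4 with no filter, 0 without WT 4 and WT 5, and 1 to 2 with 1 library left out. The number of rows tested differed between settings, so the totals in this section are not shares of a common set. The calls among the 8 genes have no share of all rows beside them here, so nothing is read from their counts. In the first table, calls numbered 596, 694 with DESeq2, 1322 with no filter and 158 to 456 with 1 library left out. Of the 8 genes 1 was called, 4 with DESeq2, 5 with no filter and 0 to 2 with 1 left out. In the second table, calls numbered 85, 439 with DESeq2, 2 with no filter, 28 with limma voom and 0 to 5 with 1 left out; DESeq2 called 2 of the 8 genes and leaving out 1 library gave 0 throughout. For the difference between tables, calls numbered 200, 344 with DESeq2, 717 with no filter and 57 to 484 with 1 left out; 0 of the 8 genes were called by edgeR (3 at an unadjusted p under 0.05), 2 with DESeq2, 3 with no filter and 0 to 2 with 1 left out.

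The sign of a log2 fold change turned in these cases. Leaving out 1 library gave a pooled range of -0.293 to 0.0328 for Col1a2 and -0.374 to 0.0242 for Reck; a second-table range of -0.335 to 0.0834 for Col15a1, -0.207 to 0.393 for Matn2 and -0.366 to 0.349 for Sdc2; and a difference between tables of -0.247 to 0.323 for Adamts12 and -0.0644 to 0.672 for Sdc2. For Sdc2 in the second table limma voom gave -0.0012. None of these was called in edgeR's main fits. The cause was not tested.

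No paired analysis was possible because replicate numbers are absent from the labels and were assigned in accession order. Depth limits Adamts12 and Tfpi2 most, at 12 to 61 and 20 to 138 counts per library.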

Other observations

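Osr2, a transcription factor of mesenchymal cells that lies inside the same stretches, measured 1.24, 0.491, 1.34, 3.21 and 1.31 CPM in KO 1 to 5, against 2.44, 3.05, 1.03, 114 and 478 CPM in WT 1 to 5. WT 4 and WT 5 were far above the other 8 libraries. The gene did not pass the filter on low counts and was not tested. In these 2 libraries Adamts12 was at 16.4 and 13.5 CPM and Tfpi2 at 30.1 and 37.4 CPM, the highest of any library for both genes, while Svep1 was at its lowest, 34.7 and 62.0 CPM. Whether these values belong together was not tested.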
